A study of Mus musculus with 88 samples.

Results

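Mouse embryonic stem cell (ESC) lines derived in a2i, a medium with an inhibitor of the kinase Src in place of the MEK inhibitor, were compared with lines derived in t2i, a medium in which the MEK inhibitor is kept at a lowered dose. The comparison takes 8 of the 26 RNA-seq libraries among the 88 samples of the study, chosen by their labels: a2i XX lines 4 and 18, a2i XY lines 1 and 3, t2i XX lines 1 and 3, and t2i XY lines 2 and 6. All 8 lines came from an F1 cross of 129X1/SvJ and C57BL6, were at passage 3 and gave 1 library each. The labels name the media only: their make-up is given from knowledge of the study, in which 2i pairs a MEK inhibitor with an inhibitor of GSK3, and a2i and t2i keep the GSK3 inhibitor. The 4 lines of the same cross in 2i (2 XX, 2 XY) stand beside them as a further point of comparison, and 4 lines in serum enter the estimate of the spread. Autosomal genes are reported, 12660 of the 13150 genes that passed the filter on low values. The labels do not say which lines came from separate embryos, so p-values measure the spread between these lines and no more. Values are RPKM (reads per kilobase of gene, scaled to the mapped reads of the library), and differences are a2i minus t2i on the log2(RPKM + 1) scale, which understates changes of genes near or below 1 RPKM.

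MEK phosphorylates ERK, and active ERK switches on a first wave of transcription factors such as Egr1 and Fos and its own feedback inhibitors, the Dusp phosphatases and Sprouty proteins. Src family kinases sit at integrins and growth factor receptors, pass signals to several pathways including ERK, and loosen cell adhesion and the epithelial state when active. Both inhibitors are used in ESC culture to hold cells in the naive state in which they self-renew. The comparison asks what a Src inhibitor changes in the transcriptome of ESC lines that a partial block of MEK does not.

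The 6 pluripotency markers (Pou5f1, Sox2, Nanog, Esrrb, Zfp42, Sall4) summed to 2596 to 2957 RPKM per line in a2i, 2473 to 3130 in t2i and 2516 to 2801 in 2i. Fibroblast markers (Col1a1, Col1a2, Col3a1, Postn, Thy1, Dcn) summed to 3.84 to 7.33 RPKM in a2i and 2.25 to 6.31 in t2i, beside 453 to 787 in the serum lines of the cross, and Thy1 was the only one to reach 1 RPKM in any a2i or t2i line. Y-linked RNA set the t2i XY lines apart: Ddx3y, Eif2s3y and Uty summed to 43.8 and 47.5 RPKM in the a2i XY lines, against 9.53 and 19.8 in the t2i XY lines, beside 32.6 and 40.7 in the 2i XY lines. Median deviations of whole autosomes, from the mean of the 4 a2i and t2i lines of the same sex and relative to all autosomes of the line, lay between −0.04 and 0.06 log2 units. Lines of 1 medium and sex correlated at 0.9863 to 0.9925 across autosomal genes (log2 values; genes are not independent replicates), a2i and t2i lines of the same sex at 0.9787 to 0.9904, and no library duplicated another. The 8 libraries reached 0.93 to 1.27 times the depth of that of a2i XX line 4, read from the steps between the lowest values, and absolute depth is unknown. In these bulk libraries fewer cells of a type and less RNA per cell cannot be told apart.

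Few genes passed the test between the media. Of 12660 autosomal genes, 89 (0.703%) were higher and 38 (0.300%) lower in a2i at an adjusted p under 0.05, with a median difference over all genes of 0.01. Called rises ran from 0.37 to 1.34 and called falls from −0.37 to −1.38. The 4 a2i lines and 4 t2i lines did not overlap for 36 of the 89 raised and 14 of the 38 lowered genes, where 2.60% of all autosomal genes tested had no overlap. These calls lean on a spread estimated over all 16 libraries of the cross. A fit of the 8 a2i and t2i libraries alone, with XX or XY as an additive term, called 0 autosomal genes in limma, where 1145 had an unadjusted p under 0.05. In that fit, whose estimates equal those above because the groups are balanced, the 127 genes had adjusted p-values of 0.059 to 0.45. A fit of those 8 libraries with 1 mean for each medium and sex called 20, of which 18 were among the 127, and the additive fit is the stricter reading.

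Single lines moved the counts. Leaving out a2i XY line 3 left 9 genes called higher and 6 lower, and leaving out a2i XY line 1 left 25 and 15. Dropping a t2i line gave 10 higher and 10 lower for XX line 1, 9 and 10 for XY line 2, 20 and 13 for XY line 6, and 141 and 47 for XX line 3. Of the 127 genes, 10 kept their call without each of the 8 lines in turn. Among them were the raised genes Khdc3, Egr1, Dmrt1 and Anxa5, and the lowered genes Ncam1, Ldhal6b, D630039A03Rik, Stmn1 and Arl14epl. Anxa5, Stmn1 and Arl14epl belong to 9 of the 127 genes that were also called for a difference between XX and XY lines. Arl14epl stood at 0.05 in XX and −1.56 in XY lines, so its fall lay in the XY lines alone. Anxa5 stood at 1.62 in XX and 0.30 in XY lines, and Stmn1 at −0.85 and −0.25.

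**Figure D1:**
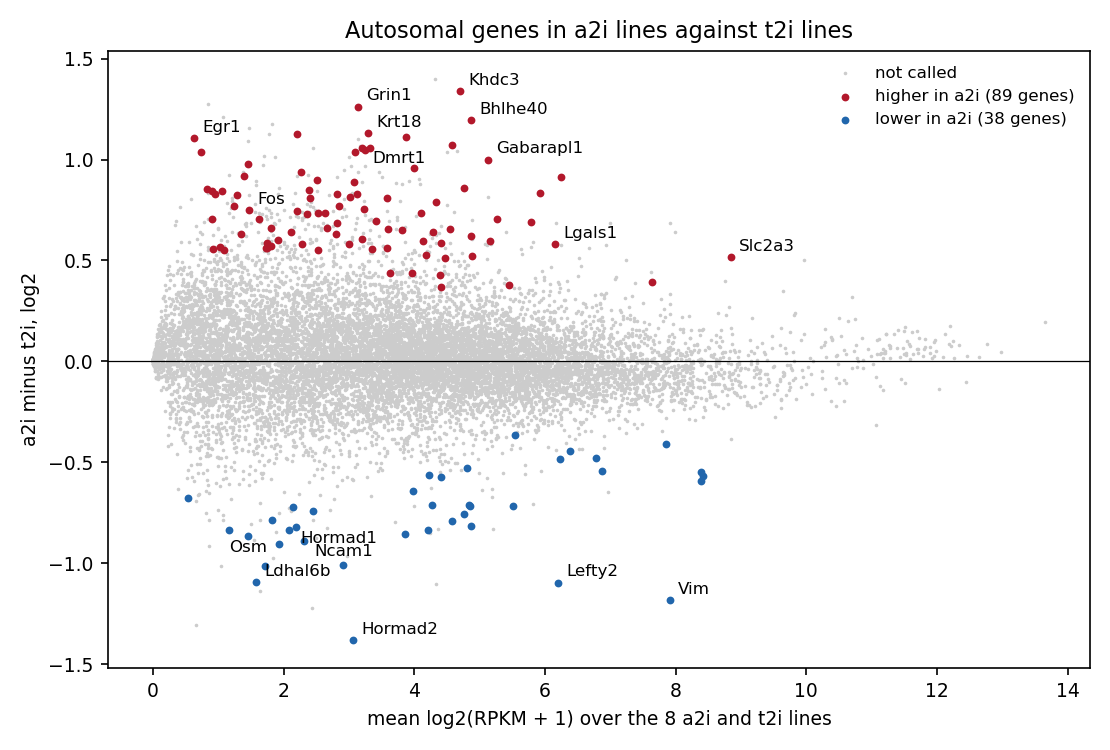
Each point is an autosomal gene, with its mean log2(RPKM + 1) over the 8 lines across the page and its a2i minus t2i difference (log2) up the page. Red points are the 89 genes called higher and blue points the 38 called lower in a2i, which lie between −1.38 and 1.34.

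Of the genes of the first response to ERK, Egr1 and Fos were higher in a2i, from low levels. Egr1, an immediate early transcription factor, had 0.290 and 1.10 RPKM in the a2i XX lines and 1.94 and 2.28 in the a2i XY lines, against 0.0437 and 0 in the t2i XX lines and 0.0899 and 0.0690 in the t2i XY lines. All 4 a2i lines lay above all 4 t2i lines, and the XY lines of a2i were the highest. Egr1 rose by 1.11 (SE 0.14, adjusted p = 0.0063; 0.93 to 1.28 with each line left out, called in every case). Fos, whose protein pairs with Jun to form the AP-1 factor, had 3.06 and 5.30 RPKM in the a2i XX lines and 1.6 and 1.49 in the a2i XY lines, against 1.43 and 1.85 in the t2i XX lines and 0.551 and 0.927 in the t2i XY lines. The groups overlapped across the sexes, but within XX and within XY each a2i line was above each t2i line. Fos rose by 0.75 (SE 0.16, adjusted p = 0.044), a call that ended without any one of a2i XX line 18, a2i XY lines 1 and 3, t2i XX line 1 and t2i XY lines 2 and 6 (0.59 to 0.91). These 2 genes were the calls among 18 immediate early genes, 13 of which had a difference above 0 (52.8% of all autosomal genes did), with a list median of 0.12. Ier3 stood at 0.91 (SE 0.24, adjusted p = 0.086) and Zfp36, which encodes an RNA-binding protein that shortens mRNA lifetimes, at 0.42 (SE 0.11, adjusted p = 0.087).

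The slower feedback arm of ERK did not pass the test. None of 11 feedback inhibitors was called, although all 11 had a difference above 0 and the list median was 0.17, with 0.13 after quantile normalization. Dusp6, an ERK phosphatase, had 3.92 and 8.14 RPKM in the a2i XX lines and 15.9 and 9.76 in the a2i XY lines, against 3.65 and 2.18 in the t2i XX lines and 9.70 and 6.05 in the t2i XY lines. The groups overlapped across the sexes, but within XX and within XY each a2i line was above each t2i line, some by little. The difference was 0.72 (SE 0.21, adjusted p = 0.13). Spry4, a Sprouty family inhibitor of receptor signalling, had 2.01 and 7.84 RPKM in the a2i XX lines and 9.16 and 5.03 in the a2i XY lines, against 2.36 and 1.29 in the t2i XX lines and 4.35 and 2.11 in the t2i XY lines. It stood at 0.92 (SE 0.31, adjusted p = 0.19) and passed the test only without a2i XX line 4, its lowest a2i line, at 1.31. Dusp4 stood at 0.67 (SE 0.24) and Errfi1, an inhibitor of the EGF receptor, at 0.39 (SE 0.10, adjusted p = 0.092). Of 15 ETS and Myc effectors of ERK none was called (median 0.01), with the cyclin gene Ccnd1 at −0.56 (SE 0.13, adjusted p = 0.065). Ccnd1 was called only without t2i XX line 3, and that line and t2i XX line 1 held 65.4 and 91.9 RPKM, where the 4 a2i lines held 36.6 to 54.6.

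Among intermediate filament genes Krt18 rose and Vim fell, while another keratin and another type III filament gene moved the other way. Krt18, a keratin of simple epithelia (chromosome 15, 102028215 to 102032026, mm10), had 14.2 and 15.1 RPKM in the a2i XX lines and 11.2 and 14.1 in the a2i XY lines, against 4.39 and 6.69 in the t2i XX lines and 6.11 and 5.60 in the t2i XY lines. The lowest a2i line was above the highest t2i line, and Krt18 rose by 1.13 (SE 0.22, adjusted p = 0.031). Vim, which encodes the intermediate filament vimentin of mesenchymal cells (chromosome 2, 13573926 to 13582826), had 104 and 173 RPKM in the a2i XX lines and 233 and 152 in the a2i XY lines, against 401 and 313 in the t2i XX lines and 356 and 383 in the t2i XY lines. Again the groups did not overlap, with the a2i lines below the t2i lines, and Vim fell by 1.18 (SE 0.18, adjusted p = 0.013). Leaving out single lines gave 1.0 to 1.26 for Krt18, whose call held only without t2i XX line 3, and −1.36 to −1.0 for Vim, whose call was lost when a2i XY line 3, line 1 of the t2i XX pair or line 2 of the t2i XY pair was dropped. Krt42 and Prph were chosen after their values were seen. The keratin gene Krt42 fell by 0.57 (SE 0.08, adjusted p = 0.012), and Prph, which encodes the neuronal filament peripherin, rose by 0.59 (SE 0.11, adjusted p = 0.026).

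Most of the listed epithelial genes had a difference above 0, but few passed the test. Of 24 tested, 21 had a difference above 0, with a list median of 0.32 beside 0.01 over all autosomal genes, and 12 had an unadjusted p under 0.05 in the direction of a2i (8.53% of all autosomal genes did, and 5.66% in the direction of t2i). Of these 24 only Krt18 was called. The median was 0.40 in XX lines, 0.22 in XY lines, 0.29 after quantile normalization and 0.29 to 0.36 with each line left out. Among the uncalled members Krt19, another simple keratin, averaged 8.10 RPKM in a2i lines and 4.08 in t2i lines (0.82, SE 0.22, adjusted p = 0.098). Krt7 averaged 3.42 in a2i lines and 1.73 in t2i lines (0.76, SE 0.17, adjusted p = 0.061). Epcam, an epithelial adhesion molecule, averaged 130 RPKM in a2i lines and 103 in t2i lines (0.33, SE 0.08, adjusted p = 0.073), and Cgn, a tight junction scaffold, stood at 0.51 (SE 0.12, adjusted p = 0.067). Cdh1, the adhesion receptor E-cadherin, stood at 0.10 (SE 0.09, adjusted p = 0.65). Tjp1, which anchors tight junctions to actin, stood at 0.07 (SE 0.12, adjusted p = 0.86). Called genes outside this list include Lsr and Ap1m2, chosen after their values were seen. Lsr, a cell junction gene, rose by 0.64 (SE 0.10, adjusted p = 0.016). Ap1m2, a protein sorting gene of epithelial cells, rose by 0.62 (SE 0.12, adjusted p = 0.031).

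Mesenchymal genes did not move one way. Of 19 tested, Vim fell and Lgals1, which encodes the glycan-binding protein galectin-1, rose, and the median was 0.16. Lgals1 had 96.9 and 82.2 RPKM in the a2i XX lines and 82.4 and 84.8 in the a2i XY lines, against 45.0 and 53.1 in the t2i XX lines and 68.6 and 66.4 in the t2i XY lines. The a2i lines lay above the t2i lines without overlap, by 0.58 (SE 0.09, adjusted p = 0.012; 0.52 to 0.64, with the call lost without a2i XY line 3, t2i XX line 1 or line 2 of t2i XY). S100a6, a calcium-binding protein gene, had the largest difference of the list at 1.40, but with an SE of 0.50 it was not called (adjusted p = 0.21), and Anxa2, which encodes an annexin of the membrane cytoskeleton, stood at 1.04 (SE 0.25, adjusted p = 0.067). Fn1, the matrix gene fibronectin, stood at 0.16 (SE 0.11, adjusted p = 0.59). Fibroblasts express Vim and Lgals1 as well. Of the 6 fibroblast markers, Thy1 had 3.05 to 7.06 RPKM in a2i lines and 1.99 to 5.32 in t2i lines, the other 5 were under 1 RPKM in each of these lines, and Postn was at 0 in all t2i lines. Their part in these results was not tested. The 16 genes of the wider fibroblast list had a median of 0.03 with none called.

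The lists of adhesion and actin genes, which lie close to the known substrates of Src, held no call. Called genes outside these lists include Ablim1 and Ncam1, described with the most changed genes, and 2 chosen after their values were seen. Sdc4, a proteoglycan gene of focal adhesions, rose by 0.91 (SE 0.15, adjusted p = 0.015), and Cotl1, which encodes an actin-binding protein, rose by 0.66 (SE 0.11, adjusted p = 0.020). Of 28 integrin and focal adhesion genes none passed, with a median of 0.13 and 22 differences above 0. Zyx, which encodes the focal adhesion protein zyxin, had 12.8 and 16.6 RPKM in the a2i XX lines and 14.1 and 13.4 in the a2i XY lines, against 7.21 and 4.86 in the t2i XX lines and 7.58 and 8.50 in the t2i XY lines. Those lines did not overlap, yet the difference of 0.94 was not called (SE 0.23, adjusted p = 0.078). Of 22 SRF and actin cytoskeleton genes none was called (median 0.09), and Tpm2, a tropomyosin gene, stood at 0.80 (SE 0.18, adjusted p = 0.062), again without overlap of the lines. Tpm2 was called without a2i XX line 4, at 0.94. YAP targets had a median of 0.10 with 0 of 14 called. Cyr61, a YAP target and matrix protein gene, stood at 0.42 (SE 0.15, adjusted p = 0.23). RNA of the kinases did not pass the test. Src had 40.3 and 38.1 RPKM in the a2i XX lines and 25.8 and 16.7 in the a2i XY lines, against 27.3 and 20.7 in the t2i XX lines and 25.1 and 18.4 in the t2i XY lines, for a difference of 0.33 (SE 0.18, adjusted p = 0.45). Yes1 stood at −0.16 (SE 0.10, adjusted p = 0.51), and Csk, the kinase that switches Src off, at 0.05 (SE 0.09, adjusted p = 0.87). Lck, the family member with the lowest p, stood at 0.33 (SE 0.11, adjusted p = 0.18), and none of the 12 genes of this list passed.

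**Figure D2:**
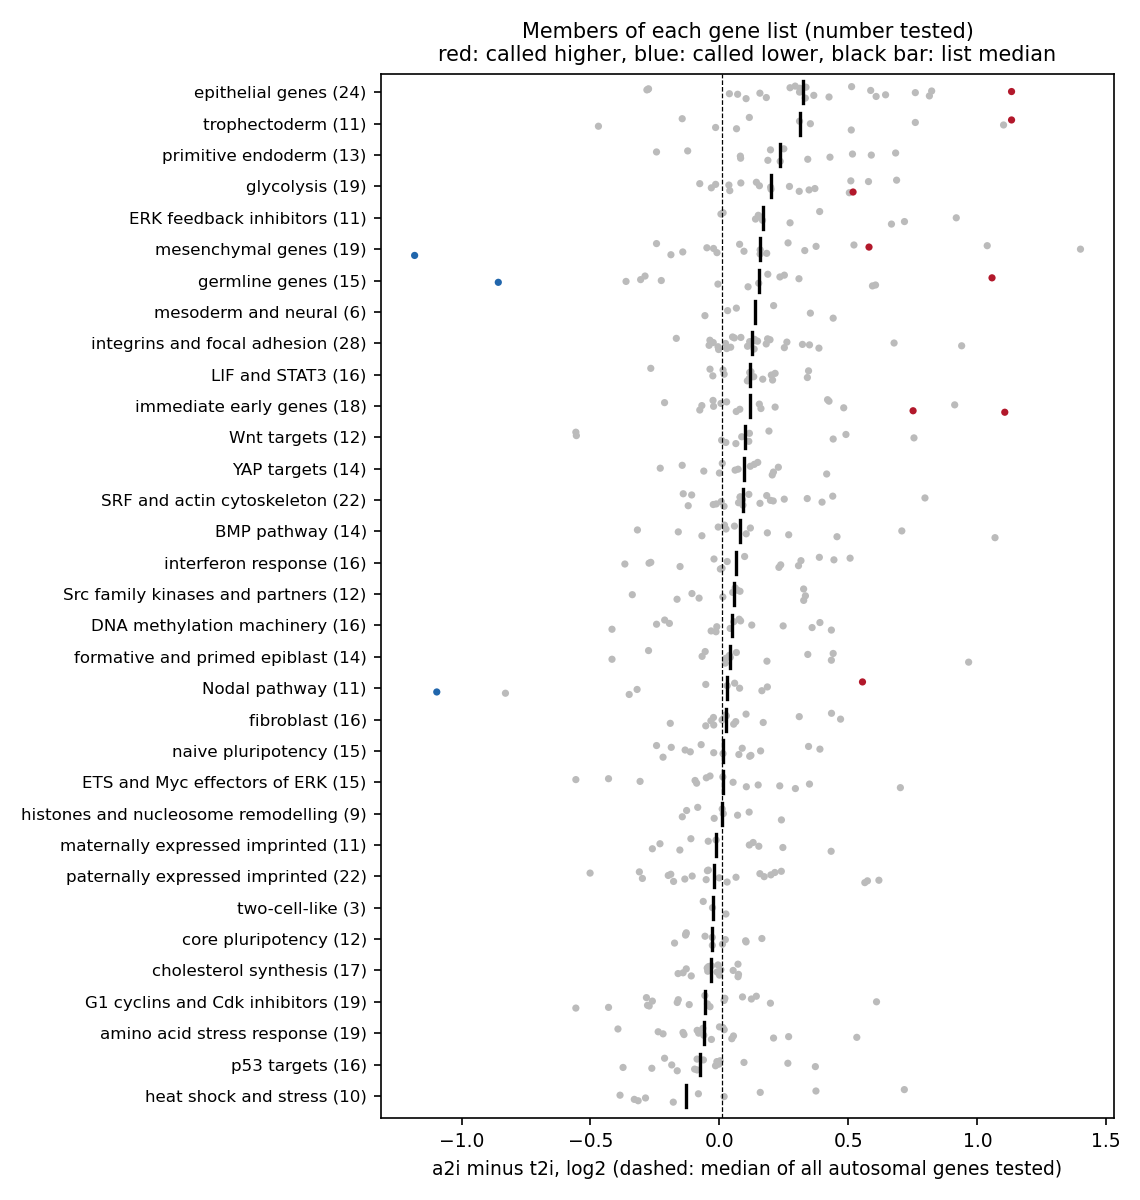
Each point is a tested autosomal member of a gene list, at its a2i minus t2i difference (log2), with the number tested in brackets, called members in red (higher) or blue (lower), and the list median as a black bar. Medians run from −0.13 (heat shock and stress genes) to 0.32 (epithelial genes), and 7 of the 33 lists hold a called member.

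Genes used in germ cells moved in both directions. Khdc3, which encodes a subunit of the maternal complex beneath the membrane of the oocyte (chromosome 9, 73101835 to 73104438), had 62.7 and 59.9 RPKM in the a2i XX lines and 25.1 and 27.6 in the a2i XY lines, against 42.6 and 33.7 in the t2i XX lines and 4.91 and 6.95 in the t2i XY lines. Within each sex the a2i lines were above the t2i lines, and the XX lines were above the XY lines in both media, while the 2i lines had the opposite order, with 8.85 and 6.02 in the 2i XX lines and 35.1 and 33.2 in the 2i XY lines. Khdc3 rose by 1.34 (SE 0.17, adjusted p = 0.0068), the largest called rise, with 1.23 to 1.44 as lines were left out. Dmrt1, a transcription factor of the testis and of germ cells (chromosome 19, 25505617 to 25604329), had 11.8 and 11.8 RPKM in the a2i XX lines and 11.3 and 14.5 in the a2i XY lines, against 4.29 and 5.14 in the t2i XX lines and 5.36 and 7.02 in the t2i XY lines. The groups did not overlap, the 4 a2i lines were close to each other, and Dmrt1 rose by 1.06 (SE 0.15, adjusted p = 0.0083; 0.97 to 1.14).

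Both measured members of the HORMAD family, which coat chromosome axes in meiosis and monitor the pairing of homologues, fell. Hormad1 (chromosome 3, 95559676 to 95587671) had 25.1 and 23.2 RPKM in the a2i XX lines and 3.31 and 3.90 in the a2i XY lines, against 38.7 and 34.2 in the t2i XX lines and 8.69 and 9.59 in the t2i XY lines. The a2i XX lines stood above the t2i XY lines, but within each sex the a2i lines were lower. Hormad1 fell by 0.86 (SE 0.16, adjusted p = 0.024). Hormad2 (chromosome 11, 4345813 to 4441105) had 7.58 and 3.92 RPKM in the a2i XX lines and 4.60 and 2.01 in the a2i XY lines, against 20.7 and 23.1 in the t2i XX lines and 4.72 and 9.90 in the t2i XY lines, and in each sex both a2i lines were below both t2i lines. It fell by 1.38, the largest called fall (SE 0.25, adjusted p = 0.024). The differences stayed at −0.90 to −0.81 for Hormad1 and −1.61 to −1.15 for Hormad2 as lines were left out, but the calls of Hormad1 ended without a2i XX line 18, a2i XY lines 1 and 3, t2i XX line 1 or lines 2 and 6 of t2i XY. Those of Hormad2 ended without a2i XX line 18, a2i XY line 3, t2i XX line 1 or line 6 of t2i XY. In the list of 15 germline genes under promoter methylation, Dmrt1 rose, Hormad1 fell and the others were not called (median 0.15, 9 above 0). Ddx4, a germ cell RNA helicase, stood at 0.59 (SE 0.14, adjusted p = 0.063), and Dazl, a germ cell RNA-binding protein gene, at 0.11 (SE 0.17, adjusted p = 0.84).

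Promoters of these 3 genes are shown because germline genes of this kind are known to be silenced by methylation of CpG dinucleotides at their start. Each stretch runs from 250 bases before to 50 after the start (RefSeq, GRCm38.p6), with every CG in capitals. Hormad1 (chr3:95559427-95559726, plus strand) has 24 CG and Hormad2 (chr11:4441033-4441332, minus strand) 16, while Khdc3 (chr9:73102148-73102447, plus strand) has 0. The Khdc3 stretch lies inside the Khdc3 locus given above, which begins at 73101835. Its count is thus for a start within that locus. The median was 21 over the promoters of tested autosomal genes.
Hormad1: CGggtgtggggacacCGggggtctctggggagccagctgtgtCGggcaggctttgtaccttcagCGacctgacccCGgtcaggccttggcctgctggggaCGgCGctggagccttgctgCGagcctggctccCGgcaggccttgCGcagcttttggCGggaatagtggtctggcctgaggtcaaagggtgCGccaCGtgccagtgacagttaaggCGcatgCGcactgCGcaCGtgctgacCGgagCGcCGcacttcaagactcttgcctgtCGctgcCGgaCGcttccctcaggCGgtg
Hormad2: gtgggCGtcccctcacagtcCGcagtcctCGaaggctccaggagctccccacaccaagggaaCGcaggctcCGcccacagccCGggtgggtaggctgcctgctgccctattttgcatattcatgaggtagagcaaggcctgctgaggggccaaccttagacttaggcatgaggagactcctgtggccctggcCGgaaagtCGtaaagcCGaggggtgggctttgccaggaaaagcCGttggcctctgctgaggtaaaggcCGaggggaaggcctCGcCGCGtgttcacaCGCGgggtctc
Khdc3: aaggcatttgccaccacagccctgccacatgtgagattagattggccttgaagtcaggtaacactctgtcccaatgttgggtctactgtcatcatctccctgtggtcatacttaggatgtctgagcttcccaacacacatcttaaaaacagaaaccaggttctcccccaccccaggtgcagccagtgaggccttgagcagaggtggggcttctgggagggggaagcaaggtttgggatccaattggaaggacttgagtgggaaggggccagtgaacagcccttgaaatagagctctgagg
The methylation data of the study were not analysed here, so the letters describe the promoters and nothing more.

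In the Nodal pathway, which patterns the embryo and is active in ESCs, an inhibitor fell while an intracellular brake rose. Lefty2, a secreted antagonist of Nodal and itself a Nodal target (chromosome 1, 180893107 to 180899103), had 45.0 and 104 RPKM in the a2i XX lines and 40.9 and 30.3 in the a2i XY lines, against 137 and 132 in the t2i XX lines and 98.9 and 71.1 in the t2i XY lines. Only a2i XX line 18 reached into the t2i range, and Lefty2 fell by 1.10 (SE 0.22, adjusted p = 0.036; −1.39 to −0.80). Its call held only without a2i XX line 4 or a2i XX line 18. Its close paralogue Lefty1 averaged 30.7 RPKM in a2i lines and 51.1 in t2i lines and was not called (−0.83, SE 0.29, adjusted p = 0.21), and how the authors assigned reads that fit both genes is not known from the labels. Nodal stood at −0.35 (SE 0.09, adjusted p = 0.084) and Gdf3, a related ligand, at −0.32 (SE 0.10, adjusted p = 0.14). Skil, which encodes a repressor of Smad transcription factors, had 14.5 and 15.5 RPKM in the a2i XX lines and 7.79 and 9.36 in the a2i XY lines, against 7.91 and 6.69 in the t2i XX lines and 7.90 and 7.19 in the t2i XY lines. Its XX lines were apart while its XY lines overlapped, and it rose by 0.55 (SE 0.10, adjusted p = 0.026), a call that held only without a2i XX line 4. With 1 gene higher and 1 lower of 11, the list median was 0.03, and −0.03 after quantile normalization.

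Bmp4, a growth factor that helps to keep ESCs undifferentiated, did not pass the test. It had 5.77 and 10.6 RPKM in the a2i XX lines and 21.3 and 15.7 in the a2i XY lines, against 4.93 and 1.75 in the t2i XX lines and 8.72 and 8.54 in the t2i XY lines, and the difference of 1.07 had an adjusted p of 0.053 (SE 0.23). It was called without a2i XX line 4 or t2i XX line 1, and none of the 14 BMP genes was called in the fit of all lines (median 0.08). Osm, which encodes the LIF family cytokine oncostatin M, had 1.84 and 2.02 RPKM in the a2i XX lines and 1.66 and 1.66 in the a2i XY lines, against 4.94 and 4.62 in the t2i XX lines and 3.48 and 4.00 in the t2i XY lines. The a2i lines were all lower, in a narrow range, and Osm fell by 0.91 (SE 0.17, adjusted p = 0.026; −0.94 to −0.87, called only without t2i XX line 3). The 16 genes of LIF and STAT3 signalling gave no call (median 0.12), with the kinase gene Pim3 at 0.20 (SE 0.09, adjusted p = 0.35).

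The other most raised genes had varied functions. Bhlhe40, a transcriptional repressor of the circadian and hypoxia responses, had 65.9 and 128 RPKM in the a2i XX lines and 18.4 and 21.7 in the a2i XY lines, against 27.5 and 33.2 in the t2i XX lines and 9.08 and 13.1 in the t2i XY lines. Each a2i line exceeded the t2i lines of its sex, most of all a2i XX line 18, and Bhlhe40 rose by 1.2 (SE 0.20, adjusted p = 0.017; 0.96 to 1.43). Ndrg1, a stress and hypoxia responsive gene, had 42.5 and 73.9 RPKM in the a2i XX lines and 17.0 and 23.8 in the a2i XY lines, against 18.4 and 22.7 in the t2i XX lines and 8.45 and 15.9 in the t2i XY lines. It followed the same order and rose by 1.07 (SE 0.21, adjusted p = 0.031; 0.86 to 1.28). Gabarapl1, an autophagosome protein of the ATG8 family, had 55.7 and 51.4 RPKM in the a2i XX lines and 41.2 and 46.8 in the a2i XY lines, against 16.2 and 27.4 in the t2i XX lines and 25.1 and 28.4 in the t2i XY lines. The groups were apart, and it rose by 1.0 (SE 0.15, adjusted p = 0.013; 0.82 to 1.18). The call of Bhlhe40 ended without a2i XY line 3, t2i XX line 1 or line 2 of t2i XY, and that of Gabarapl1 without a2i XY line 3 or t2i XY line 2. That of Ndrg1 ended without a2i XX line 18, a2i XY lines 1 and 3, t2i XX line 1 or line 2 of t2i XY.

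**Figure D3:**
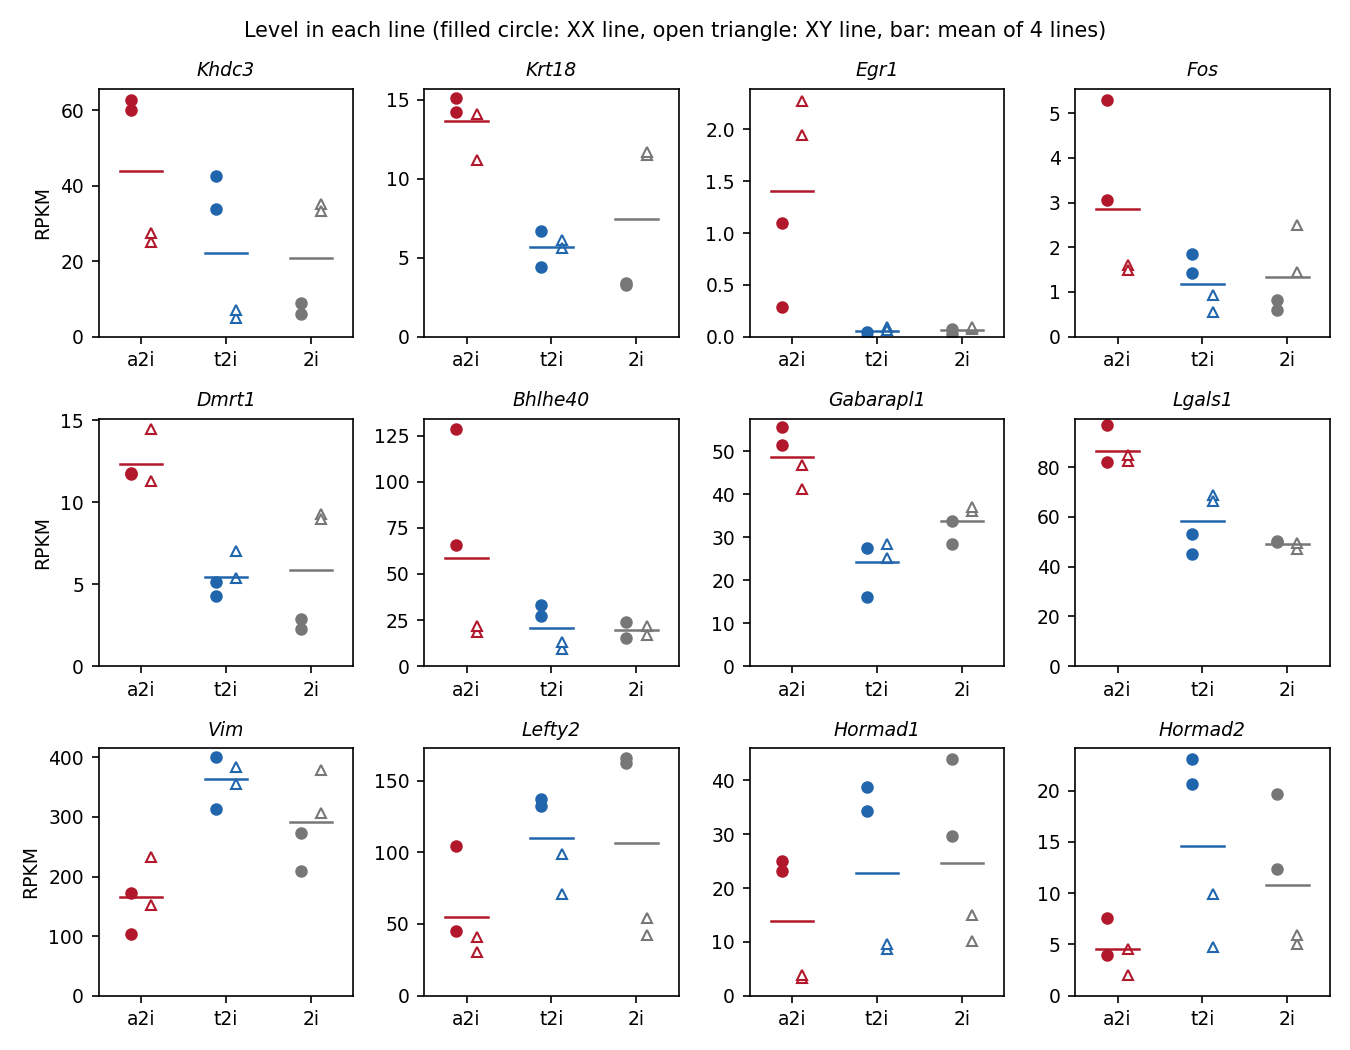
RPKM of 12 genes in each a2i, t2i and 2i line, on axes that start at 0, with XX lines as filled circles, XY lines as open triangles and bars at the mean of 4 lines. Krt18, Egr1, Dmrt1, Gabarapl1 and Lgals1 are higher and Vim is lower in every a2i line than in every t2i line, while Khdc3 and Hormad1 differ between XX and XY lines within each medium.

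Gstm5, a glutathione transferase, had 13.3 and 9.53 RPKM in the a2i XX lines and 8.98 and 14.0 in the a2i XY lines, against 3.76 and 6.01 in the t2i XX lines and 4.78 and 5.53 in the t2i XY lines. Its lines were apart and it rose by 1.04 (SE 0.21, adjusted p = 0.037; 0.89 to 1.19), a call that held only without a2i XX line 18 or t2i XX line 3. Its promoter (chr3:107895604-107895903, plus strand, RefSeq, GRCm38.p6) is shown as 1 of 5 raised genes with the AP-1 letters TGACTCA or TGAGTCA, which are the motif of Fos and Jun proteins; the match is in capitals.
Gstm5: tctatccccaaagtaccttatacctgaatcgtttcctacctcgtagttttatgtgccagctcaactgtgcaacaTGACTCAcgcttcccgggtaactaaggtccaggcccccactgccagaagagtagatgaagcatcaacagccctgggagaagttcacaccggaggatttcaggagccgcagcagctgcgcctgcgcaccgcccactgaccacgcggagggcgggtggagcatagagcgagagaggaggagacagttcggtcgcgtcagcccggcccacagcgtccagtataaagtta
Of the 65 raised genes with a promoter in the reference table, 5 (7.69%) held TGACTCA or TGAGTCA on either strand, beside 3.37% of 9565 promoters of tested autosomal genes and 5.17% of all 27025. The other 4 were Entpd2, Glrx, Lmbrd1 and Lsr. Of the 25 lowered genes with a promoter 0 held it. CATTCC, the TEAD letters, stood in 12 raised (18.5%) and 3 lowered (12.0%) promoters, beside 11.7% of tested autosomal genes. GCCNNNGGC, an AP-2 motif, stood in 16 (24.6%) and 9 (36.0%), beside 25.7%. The CArG box bound by SRF stood in 1 raised and 0 lowered promoters, TGACGTCA in 1 and 0, and the ETS letters ACCGGAAGT in 0 and 0, beside 1.17%, 3.36% and 2.23% of tested autosomal genes. Both strands were searched, and none of the motifs was tested.

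Grin1, which encodes a glutamate receptor subunit, had 22.9 and 28.3 RPKM in the a2i XX lines and 6.74 and 5.33 in the a2i XY lines, against 10.4 and 6.18 in the t2i XX lines and 3.20 and 2.00 in the t2i XY lines. It rose by 1.26 (SE 0.26, adjusted p = 0.041; 1.09 to 1.43), but the call ended without any one of the 8 lines. Ablim1, an actin-binding LIM protein gene, had 14.1 and 10.1 RPKM in the a2i XX lines and 14.1 and 12.4 in the a2i XY lines, against 2.1 and 4.13 in the t2i XX lines and 8.84 and 10.9 in the t2i XY lines. In it the t2i XX lines stood below the rest, and it rose by 1.04 (SE 0.18, adjusted p = 0.02; 0.86 to 1.23). Plac8, first known from placenta, had 5.43 and 3.57 RPKM in the a2i XX lines and 30.8 and 45.4 in the a2i XY lines, against 1.6 and 1.63 in the t2i XX lines and 19 and 15.8 in the t2i XY lines. It varied more between the sexes than between the media and rose by 1.06 (SE 0.23, adjusted p = 0.049; 0.92 to 1.19, not called without any one line). Slc15a2, a peptide transporter gene, had 0.254 and 0.791 RPKM in the a2i XX lines and 2.72 and 2.95 in the a2i XY lines, against 0.114 and 0 in the t2i XX lines and 0.0584 and 0.569 in the t2i XY lines. It was above 1 RPKM only in the a2i XY lines, and it rose by 1.04 (SE 0.16, adjusted p = 0.014; 0.90 to 1.18, not called without t2i XX line 1 or line 2 of t2i XY). It passed the filter on low values only through the a2i XY lines, the group where it is high, and without either of them it was not tested. Rab3il1, an exchange factor for Rab GTPases, rose by 1.13 (SE 0.24, adjusted p = 0.044) and Rnf157, a ubiquitin ligase gene, by 1.11 (SE 0.24, adjusted p = 0.047), and both calls held only without t2i XX line 3. Ablim1 kept its call only without a2i XX line 18 or t2i XX line 3.

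Among the other lowered genes were genes best known from neurons. Ncam1, a neural cell adhesion molecule, had 4.75 and 4.74 RPKM in the a2i XX lines and 1.37 and 1.29 in the a2i XY lines, against 7.59 and 10.0 in the t2i XX lines and 3.86 and 3.60 in the t2i XY lines. Both sexes were lower in a2i, and Ncam1 fell by 0.89 (SE 0.12, adjusted p = 0.0083; −0.98 to −0.80, called without each line). Gap43, a growth cone protein gene, had 0.937 and 1.05 RPKM in the a2i XX lines and 1.31 and 0.826 in the a2i XY lines, against 4.32 and 2.35 in the t2i XX lines and 2.62 and 1.87 in the t2i XY lines. The a2i lines were all lower, by 0.87 (SE 0.16, adjusted p = 0.024; −1.03 to −0.70). Ttc39c, a gene of little known function, had 5.03 and 7.29 RPKM in the a2i XX lines and 2.52 and 3.43 in the a2i XY lines, against 9.69 and 10.7 in the t2i XX lines and 9.09 and 9.06 in the t2i XY lines. The groups were apart and it fell by 1.01 (SE 0.17, adjusted p = 0.02; −1.12 to −0.89). Ldhal6b, a lactate dehydrogenase relative, had 1.2 and 1.42 RPKM in the a2i XX lines and 0.642 and 0.999 in the a2i XY lines, against 6.68 and 4.26 in the t2i XX lines and 1.69 and 2.36 in the t2i XY lines, without overlap, and fell by 1.09 (SE 0.14, adjusted p = 0.0083; −1.23 to −0.96). The uncharacterised D630039A03Rik had 2.48 and 2.70 RPKM in the a2i XX lines and 0.547 and 0.428 in the a2i XY lines, against 9.17 and 6.85 in the t2i XX lines and 1.5 and 1.36 in the t2i XY lines and fell by 1.01 (SE 0.12, adjusted p = 0.0063; −1.11 to −0.92). Both of these calls held without each line.

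Crisp1, a sperm-coating protein gene, Bcl2l15, a relative of the apoptosis regulator Bcl2, Accsl and Serpinf1, which encodes the secreted factor PEDF, completed the 14 most lowered genes. Crisp1 fell by 0.84 (SE 0.15, adjusted p = 0.021), Bcl2l15 by 0.83 (SE 0.15, adjusted p = 0.024), Accsl by 0.83 (SE 0.14, adjusted p = 0.02) and Serpinf1 by 0.82 (SE 0.17, adjusted p = 0.044). The a2i and t2i lines did not overlap for Crisp1 (1.48 to 2.73 RPKM in a2i, 3.76 to 5.81 in t2i) and Serpinf1 (1.2 to 3.35 in a2i, 3.95 to 6.81 in t2i). These 4 calls, with those of Gap43 and Ttc39c, ended without a2i XY line 1, a2i XY line 3, t2i XX line 1 or line 2 of t2i XY, among other lines, with differences of −1.12 to −0.65 over the 6 genes.

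On chromosome 13, 3 neighbouring genes rose. They were chosen after their values were seen: Bhmt, Bhmt2 and Dmgdh, which encode enzymes that take methyl groups from small metabolites, lie between 93616890 and 93752831 (mm10). Dmgdh had 6.57 and 5.92 RPKM in the a2i XX lines and 5.96 and 5.67 in the a2i XY lines, against 2.27 and 2.06 in the t2i XX lines and 5.05 and 3.27 in the t2i XY lines. The groups did not overlap for Dmgdh and Bhmt2. Dmgdh rose by 0.81 (SE 0.14, adjusted p = 0.021), Bhmt2 by 0.70 (SE 0.12, adjusted p = 0.020) and Bhmt by 0.83 (SE 0.16, adjusted p = 0.031). The t2i lines were on average below 2i: t2i minus 2i was −0.80 for Dmgdh, −0.66 for Bhmt2 and −1.39 for Bhmt. For Dmgdh and Bhmt2 a2i minus 2i was 0.01 and 0.04. For Bhmt the a2i lines were also below 2i, at −0.56 (adjusted p = 0.035 in limma). None of the 3 kept its call without each of the 8 lines in turn. Reads of Bhmt and Bhmt2, which are alike in sequence, may be shared.

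Of the 19 listed genes of glucose handling 1 was called. Slc2a3, a glucose transporter gene, had 914 and 1116 RPKM in the a2i XX lines and 334 and 268 in the a2i XY lines, against 485 and 500.1 in the t2i XX lines and 306 and 292 in the t2i XY lines. The XX lines of a2i were far above the rest, while the XY lines overlapped. Slc2a3 rose by 0.52 over both sexes (SE 0.10, adjusted p = 0.032), by 1.04 in XX lines and 0.00 in XY lines, and the sexes differed (1.03, SE 0.20, adjusted p = 0.041). The list had a median of 0.20 and 16 differences above 0, with the mitochondrial kinase gene Pdk1 at 0.58 (SE 0.19, adjusted p = 0.18) and Bnip3, a mitophagy receptor gene, at 0.69 (SE 0.25, adjusted p = 0.22). The call of Slc2a3 held only without a2i XX line 4 (0.44 to 0.60). Outside the list Pfkfb3, which encodes an enzyme that promotes glycolysis, rose by 0.69 (SE 0.14, adjusted p = 0.044). It was chosen after its values were seen.

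Pluripotency genes did not pass the test. Of 12 core and 15 naive pluripotency genes none was called (medians −0.03 and 0.01). Pou5f1 had 1765 and 1505 RPKM in the a2i XX lines and 1754 and 1906 in the a2i XY lines, against 1898 and 2021 in the t2i XX lines and 1555 and 1605 in the t2i XY lines, and the groups overlapped (−0.03, SE 0.08, adjusted p = 0.93). Nanog stood at −0.17 (SE 0.09, adjusted p = 0.41), Sox2 at 0.01 (SE 0.09, adjusted p = 0.98), Esrrb at 0.08 (SE 0.11, adjusted p = 0.83) and Klf4 at 0.12 (SE 0.18, adjusted p = 0.84). Of 14 formative and primed epiblast genes none was called, and Otx2, a transcription factor that opens the way out of the naive state, stood at 0.97 (SE 0.21, adjusted p = 0.055). Otx2 was called without a2i XX line 4 or t2i XX line 3, at 0.80 to 1.13 over the lines left out. The Wnt target Axin2, which reads the GSK3 inhibitor present in both media, stood at 0.06 (SE 0.19, adjusted p = 0.93), and 0 of 12 Wnt targets was called.

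The DNA methylation machinery gave no call among 16 genes (median 0.05). Dnmt3a, a de novo methyltransferase gene, had 21.6 and 25.9 RPKM in the a2i XX lines and 28.7 and 26.4 in the a2i XY lines, against 20.6 and 12.7 in the t2i XX lines and 18.1 and 25.2 in the t2i XY lines. The groups overlapped across the sexes, but within XX and within XY each a2i line was above each t2i line, some by little. Dnmt3a stood at 0.43 (SE 0.19, adjusted p = 0.32), Dnmt3b at −0.42 (SE 0.23, adjusted p = 0.45) and Dnmt3l, their cofactor gene, at 0.04 (SE 0.14, adjusted p = 0.94). Zfp57, which protects imprints, stood at −0.24 (SE 0.09, adjusted p = 0.25). Among the listed imprinted genes 0 of 11 maternally and 0 of 22 paternally expressed ones were called (medians −0.01 and −0.02), with Igf2r at 0.43 (SE 0.12, adjusted p = 0.12) and Sgce at 0.62 (SE 0.13, adjusted p = 0.051). Outside these lists H13 and Atp10a, both reported as imprinted, were called and were chosen after their values were seen. H13 rose by 0.44 (SE 0.09, adjusted p = 0.044) and Atp10a by 0.57 (SE 0.11, adjusted p = 0.033). Neither kept its call without each of the 8 lines in turn.

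The remaining lists held 1 call. Of 11 trophectoderm genes Krt18 rose (median 0.31), a gene that the epithelial list holds too. Among the others no member passed in the primitive endoderm list (13 genes, median 0.24, Lamb1 at 0.59, SE 0.16, adjusted p = 0.11), in the mesoderm and neural list (6, 0.14, Hand1 at 0.35, SE 0.20, adjusted p = 0.45), or in the 3 genes of the early cleavage stage list (−0.03, Eif1a at −0.06). None passed among cholesterol synthesis genes (17, −0.03, Hmgcs1 at −0.11), amino acid stress genes (19, −0.06, Shmt2 at −0.24) or p53 targets (16, −0.07, Pmaip1 at 0.37). The same held for G1 cyclins and Cdk inhibitors (19, −0.06), among which Cdkn1b, the Cdk inhibitor p27, stood at 0.61 (SE 0.14, adjusted p = 0.064). Interferon response genes (16, 0.06, B2m at 0.51), fibroblast genes (16, 0.03, Fbln2 at 0.43) and histone genes (9, 0.01, H2afz at −0.14) gave none either. Heat shock and stress genes had the lowest median (10, −0.13), with Hspb1, a small heat shock protein gene, at −0.39 (SE 0.09, adjusted p = 0.06). Over the 33 lists, 10 of 465 distinct autosomal genes tested were called (2.15%), beside 127 of all 12660, in lists chosen with earlier results known.

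The 2i lines enter the difference between a2i and t2i only through the spread, and place each gene against the full MEK block. For 73 of the 89 raised and 25 of the 38 lowered genes the mean of the 2i lines was nearer to t2i than to a2i, as it was for 54.5% of all autosomal genes. The 2i mean lay below both media for 46 of the raised genes, between them for 37 and above both for 6. For the lowered genes it lay above both for 14, between them for 19 and below both for 5. Differences from 2i of both media share the 2i lines, and they are given side by side for that reason. Against 2i, 7.94% of autosomal genes were called higher and 5.77% lower in a2i, and 4.12% higher and 3.82% lower in t2i. Egr1 stood at 1.08 in a2i (SE 0.14) and −0.02 in t2i (SE 0.14). Khdc3 stood at 1.27 in a2i and −0.07 in t2i, Bhlhe40 at 1.12 and −0.07, Dmrt1 at 1.14 and 0.08, and Krt18 at 0.98 and −0.15. These values average XX and XY lines. For Khdc3, Bhlhe40, Dmrt1 and Krt18 the t2i lines lay above the 2i lines in XX and below them in XY. Their small t2i values therefore average opposite shifts. In XX the a2i lines lay above the 2i lines for all of them, but in XY for Dmrt1 only. There the a2i lines of Khdc3 lay below the 2i lines, and those of Bhlhe40 and Krt18 overlapped them. Of the lowered genes Vim stood at −0.84 in a2i and 0.34 in t2i, Hormad2 at −1.01 and 0.37, Lefty2 at −0.84 and 0.25, and Ldhal6b at −1.12 and −0.02. For Lefty2 the t2i lines lay below the 2i lines in XX and above them in XY.

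Other genes were placed differently. Plac8 stood at 2.56 in a2i and 1.51 in t2i and Accsl at −1.5 and −0.66, so both media were on the same side of 2i. The same held for the ERK feedback inhibitors Spry4 and Dusp6, which were not called between a2i and t2i. Spry4 stood at 2.27 and 1.35 and Dusp6 at 1.57 and 0.85, each called against 2i in both media. Of the 11 genes of that list, 5 were called higher and 0 lower in a2i than in 2i. In t2i 2 of them were called higher and 1 lower. Ablim1 stood at 0.16 in a2i and −0.88 in t2i, so that the t2i lines were the ones away from 2i. Gap43 was also of this kind, at 0.33 in a2i and 1.2 in t2i. Slc2a3 stood at −0.04 and −0.56, where the first value averages opposite shifts. Its a2i lines lay above the 2i lines in XX (740 and 635 RPKM in 2i) and below them in XY (512 and 429 in 2i). Its t2i lines lay below the 2i lines in XX and in XY. Gabarapl1 lay on both sides, at 0.51 in a2i and −0.49 in t2i.

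**Figure D4:**
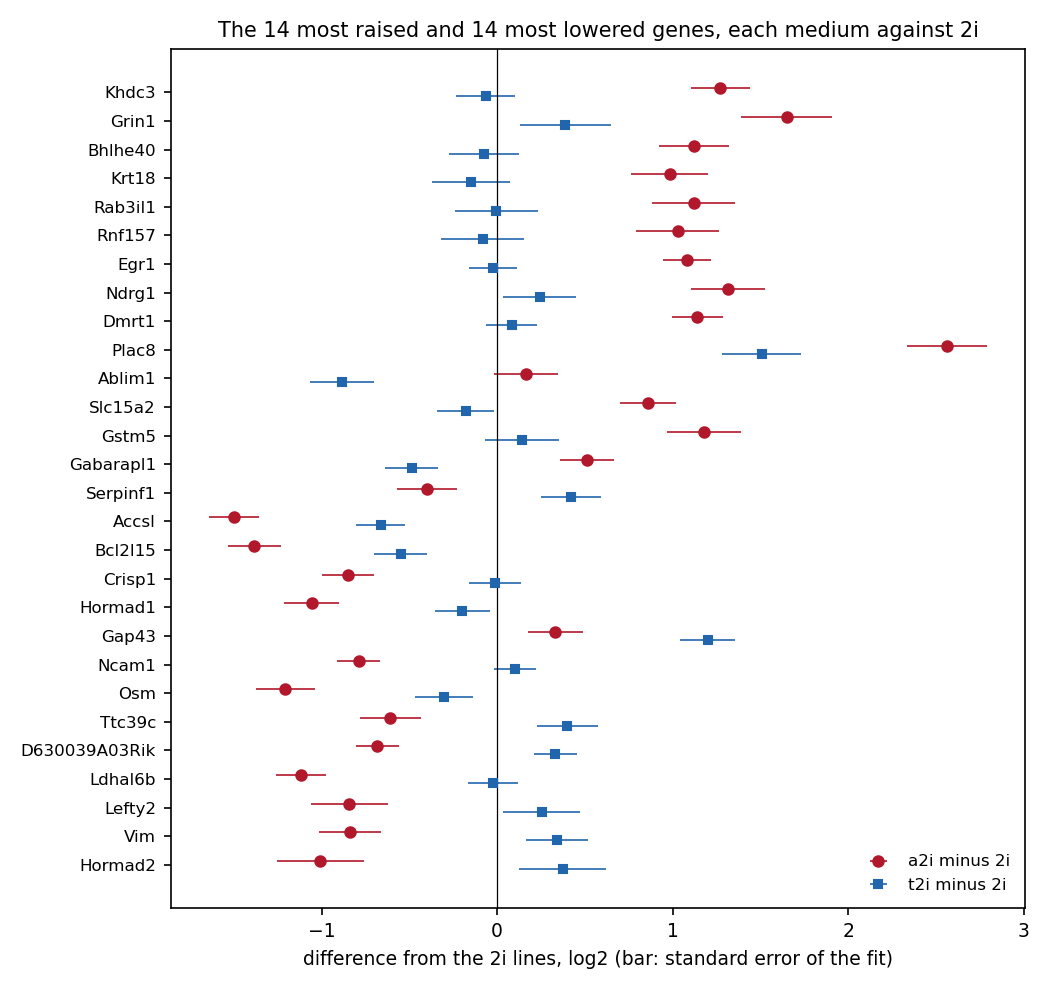
Differences from the 2i lines (log2, bars are standard errors of the fit) of the 14 most raised and 14 most lowered genes, red circles for a2i minus 2i and blue squares for t2i minus 2i. For Egr1, Khdc3, Dmrt1 and Crisp1 the blue squares lie within 0.1 of 0 while the red circles do not. Each point averages XX and XY lines, and for Khdc3 and Dmrt1 the t2i lines lay above 2i in XX and below 2i in XY.

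For some genes the difference between the media was called as unlike in XX and XY lines. These are different lines, 2 for each medium and sex, so sex chromosomes and lines cannot be told apart. In XX lines alone 430 autosomal genes (3.40%) were higher and 331 (2.61%) lower in a2i, and in XY lines alone 4 (0.0316%) and 1 (0.00790%), where limma gave 1085 genes an unadjusted p under 0.05. The difference between the sexes was called for 98 genes (0.774%), 34 with the XX difference above the XY difference and 64 with it below. Without t2i XY line 2 this count was 2, without a2i XY line 3 it was 5, and a fit of the 8 libraries alone with 1 mean for each medium and sex called 0, though 2118 had an unadjusted p under 0.05. Of the 98, 93 had opposite signs in XX and XY lines, and in 63 of these a2i was lower in XX and higher in XY lines. These 98 were chosen on the XX difference minus the XY difference, which favours opposite signs. Their signs are thus a description and no further result. The genes called over both sexes were chosen on a difference averaged over XX and XY lines, which favours the same sign in both. Their values by sex are given as a description. The median rise of the 89 was 0.98 in XX lines and 0.47 in XY lines, and the median fall of the 38 was −0.84 and −0.64. The t2i XY lines were also those with low Y-linked RNA (9.53 and 19.8 RPKM over 3 genes, against 43.8 and 47.5 in the a2i XY lines), and its part in the XY values was not tested.

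Lztr1 and Unc13d had the lowest adjusted p-values of the sex difference among the named genes. Lztr1, which encodes an adaptor that marks Ras proteins for degradation, had 89.8 and 82.6 RPKM in the a2i XX lines and 172 and 246 in the a2i XY lines, against 279 and 222 in the t2i XX lines and 104 and 130.5 in the t2i XY lines. The XX difference was −1.52 and the XY difference 0.81, a gap of −2.33 (SE 0.26, adjusted p = 0.0046). Unc13d, a gene of granule release in immune cells, had 28.5 and 29.0 RPKM in the a2i XX lines and 61.6 and 84.9 in the a2i XY lines, against 94.1 and 78.2 in the t2i XX lines and 36.6 and 42.8 in the t2i XY lines, with differences of −1.54 in XX and 0.85 in XY lines (gap −2.40, SE 0.25, adjusted p = 0.0046). In both genes the t2i XX lines and the a2i XY lines were the higher ones. Arhgef40, a guanine nucleotide exchange factor gene, followed the same order at −0.87 and 1.36 (gap −2.23, SE 0.35, adjusted p = 0.027), as did Nlrc3, an innate immune regulator, at −1.29 and 0.84 (gap −2.13, SE 0.26, adjusted p = 0.0087). Spink1, a trypsin inhibitor gene, had 1.36 and 1.61 RPKM in the a2i XX lines and 2.17 and 1.34 in the a2i XY lines, against 9.82 and 6.0 in the t2i XX lines and 0.289 and 0 in the t2i XY lines (gap −3.08, SE 0.51, adjusted p = 0.028). Cd200, an immune checkpoint ligand gene, had 1.01 and 0.378 RPKM in the a2i XX lines and 1.09 and 0 in the a2i XY lines, against 3.85 and 7.18 in the t2i XX lines and 0.126 and 0 in the t2i XY lines (gap −2.37, SE 0.46, adjusted p = 0.041). Spink1 is listed at 0 in t2i XY line 6, and Cd200 in a2i XY line 3 and t2i XY line 6.

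**Figure D5:**
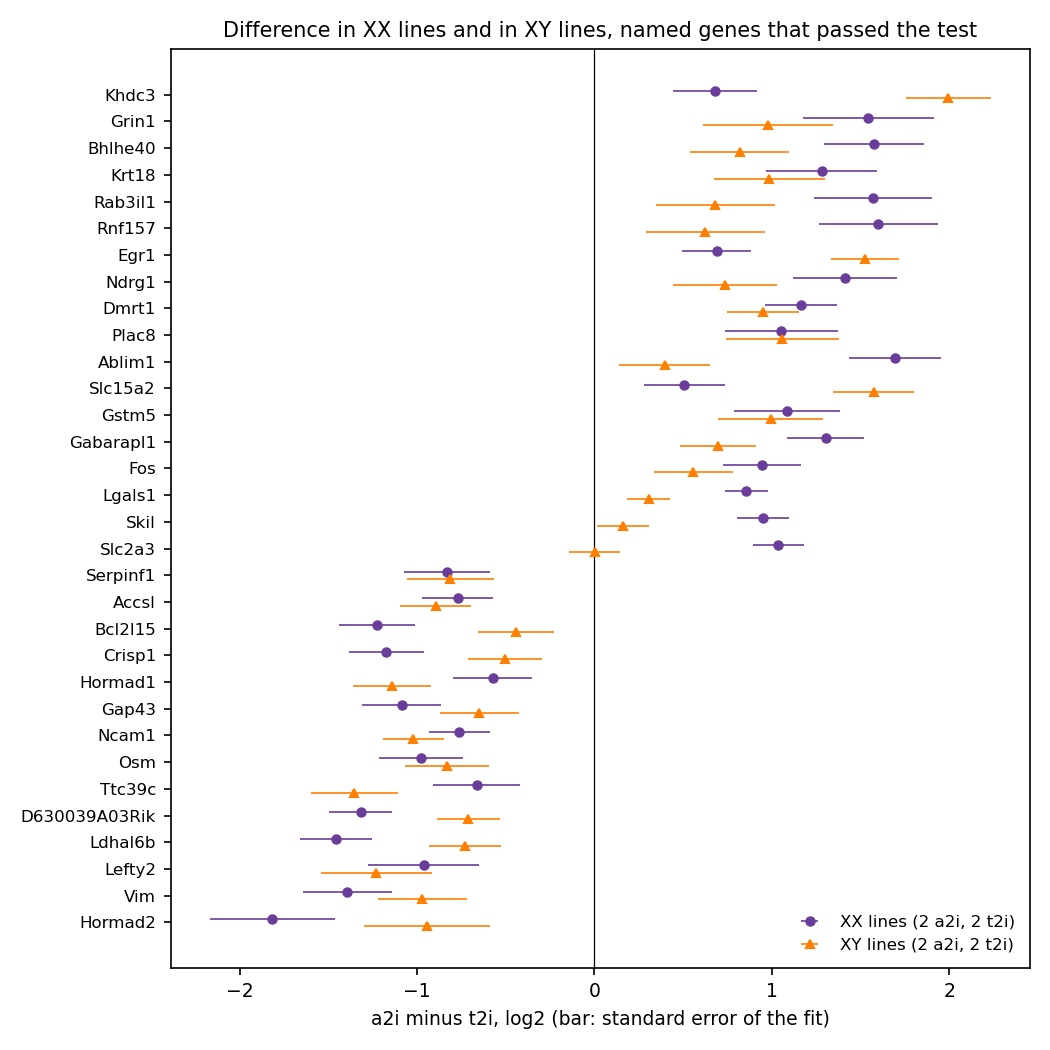
The a2i minus t2i difference (log2, bars are standard errors of the fit) of the 32 named genes that passed the test, purple circles for XX lines and orange triangles for XY lines, with 2 lines of each medium behind every point. Points of both sexes lie on the same side of 0 for these genes, with Slc2a3 at 0.00 in XY lines.

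List medians by sex are given as a description. Medians in XX and XY lines were 0.42 and 0.17 for ERK feedback inhibitors, 0.32 and −0.01 for germline genes, and 0.43 and 0.08 for trophectoderm genes. For p53 targets they were 0.19 and −0.36, and 2 of the 16 genes, Trp53inp1 and Ccng1, were called for the sex difference itself. Beside these stand 0.04 and −0.01 over all autosomal genes.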

How the data were processed

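RNA-seq of mouse ESC lines was deposited by the authors as 1 table of RPKM values, not counts. Per the labels' protocols, libraries were made with a stranded mRNA kit. The submitters' processing notes name TopHat2 2.1.0, Bowtie2 2.2.5, cutadapt 1.9.1 and Cufflinks 2.2.1 and the build mm10. Which tool made the values, and the annotation release, are not given in the sources used here. RPKM keeps no absolute depth, so no counting interval is given.

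Of the 16 libraries of the 129X1/SvJ and C57BL6 cross, 2 or more had to reach 1 RPKM for a gene to be kept. Values were analysed as log2(RPKM + 1) with limma 3.58.1 in R 4.3.3 (a mean for each medium and sex, empirical Bayes with trend, two-sided, Benjamini-Hochberg over 13150 genes, called under 0.05), and the difference averages those of XX and XY lines. The procedure was tested on simulated data. Alternatives were other pseudocounts, filters, library sets, quantile normalization, a robust fit and leaving out each line.

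Named genes are the 14 called genes most raised and the 14 most lowered (1 RPKM or more in the higher group), up to 4 called members of each list or its member with the lowest p, 18 checked genes, and up to 6 genes with the largest called sex difference. Members and lists were chosen with earlier results of these data known. Bisulfite samples were not analysed here.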

Additional observations from a re-analysis of the deposited data

Results flagged for a closer look

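Among 150 groups of 4 lines examined, 4 held a line far from the other 3, and chance gives about 1 in 20. Dmrt1 was 14.5 RPKM in a2i XY line 3, and Ccnd1 was 54.6 RPKM in a2i XY line 1. Hand1 was 1.45 RPKM in a2i XX line 4 and 0.0772 RPKM in t2i XX line 1.

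For 7 named genes the a2i minus t2i difference was called as different between XX and XY lines in limma. The XX difference minus the XY difference was 1.03 for Slc2a3, −2.13 for Nlrc3, −2.23 for Arhgef40, −2.33 for Lztr1, −2.37 for Cd200, −2.40 for Unc13d and −3.08 for Spink1 (log2). The t2i XY lines also had low Y-linked RNA, and its part in these values was not tested.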

How the results depend on the processing

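The count of genes higher in a2i was 89, and 0 in the additive fit of 8 libraries, 12 with a mean for each medium and sex in those 8, and 55 after quantile normalization. The count of lower genes was 38, and 0 and 8 in both fits of 8 libraries. In limma the additive fit had 1145 genes at an unadjusted p under 0.05. With each line left out the counts were 9 to 141 higher and 6 to 47 lower. XX lines alone gave 430 and 331 and XY lines alone 4 and 1, settings chosen after seeing the data. The count of genes with a sex difference was 98, and 0 in 8 libraries (2118 at an unadjusted p under 0.05), 14 without the serum libraries, 55 with no filter, 28 after quantile normalization and 2 to 47 with each line left out. The cause of these shifts was not tested. Of the 32 named genes called, none changed sign where it was tested; Slc15a2 was not tested without a2i XY line 1 or 3, nor with a filter of 1 RPKM in 4 libraries. Some uncalled genes did: Spink1 stood at 0.45 with a pseudocount of 0.1. With single lines left out Klf4 ranged from −0.016 to 0.25, Axin2 from −0.14 to 0.26, Dnmt3l from −0.042 to 0.13, Sox2 from −0.065 to 0.089 and Pou5f1 from −0.085 to 0.030. Quantile normalization turned the list medians of formative genes (−0.01), Nodal genes (−0.03) and histone genes (−0.05). No paired analysis was possible because a2i and t2i lines of the same sex share no line number.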
